A study of Mus musculus with 24 samples.

Results

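Messenger RNA of 10 genes of the merlin, YAP and TEAD pathway was followed in MS03 Schwann cells (SC) after 24 hours with 1 of 7 drugs against focal adhesion kinase (FAK) or with the vehicle dimethyl sulfoxide (DMSO). The genes are *Nf2*, *Lats2*, *Amotl2*, *Ajuba*, *Yap1*, *Wwtr1*, *Tead1*, *Ankrd1*, *Crim1* and *Myof*. They were chosen by name, with earlier results of these data known. Each symbol matched 1 row of the count table, and the genes make up 10 of its 49315. MS03 is a line of immortalized SC from an *Nf2* flox/flox mouse, made *Nf2*-/- with Cre in culture, and every group carries this genotype, the DMSO group included. Each of 8 groups had 3 libraries, 24 in all. Inhibitors that block the enzymatic activity of FAK were given at 1 µM, namely VS-4718, defactinib, GSK2256098 and IN10018 (ifebemtinib). The other drugs were PROTACs, molecules that bring FAK to a ubiquitin ligase for destruction by the proteasome: PROTAC FAK degrader 1 at 1 µM, and GSK215 and BSJ-04-0146 at 0.1 µM. The replicates are named biological, but what separated their cultures is not stated, and all come from 1 immortalized line grown without axons or other cells.

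The protein product of *Nf2*, merlin, links the cell membrane to the Hippo kinase cascade, and its loss gives rise to schwannomas. In this cascade, LATS1 and LATS2 phosphorylate the coactivators YAP (gene *Yap1*) and TAZ (gene *Wwtr1*), which are then held in the cytoplasm or degraded. Angiomotin proteins such as AMOTL2 bind YAP and TAZ and restrain them, whereas AJUBA, a LIM domain protein of cell junctions, binds and restrains LATS. When the cascade is off, YAP and TAZ enter the nucleus and bind TEAD factors such as TEAD1, which recognize the DNA letters GGAATG. *Ankrd1*, an ankyrin repeat protein of the nucleus, is among the most used readouts of YAP activity, and *Crim1*, a membrane protein that binds growth factors of the BMP family, and *Myof*, a membrane repair protein of the ferlin family, are also listed as YAP and TEAD targets. *Lats2*, *Amotl2* and *Ajuba* are targets as well as regulators. FAK is a kinase of integrin adhesions, sites through which YAP responds to attachment and stiffness.

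The start regions of the genes were searched for the letters GGAATG or, on the other strand, CATTCC, since these are what a TEAD factor recognizes. RefSeq windows of 250 bases before a transcription start (GRCm38.p6) were at hand for 9 of the 10 genes, all but *Tead1*. At least 1 match stood in the windows of 6 genes, *Yap1*, *Wwtr1*, *Amotl2*, *Ajuba*, *Ankrd1* and *Crim1*, and in none of those of *Nf2*, *Lats2* and *Myof*. Over all 32851 windows of the same length 12.6% held a match, and 14.4% of 27025 genes had such a window. Whole windows are shown for *Yap1* and *Wwtr1*, whose RNA moved in opposite directions with PROTAC FAK degrader 1, and for *Ajuba* and *Crim1*, which rose most with VS-4718. For *Ankrd1* and *Amotl2*, 30 bases around each match are shown. Their windows overlap exons of another annotation, GENCODE M21, with all 250 bases for *Ankrd1* and 136 for *Amotl2*, so distances hold for the RefSeq start only. All are written 5′ to 3′ on the strand of the gene, and capitals mark the TEAD letters. The *Yap1* window is chr9:8004597-8004846 on the minus strand, with the match beginning 141 bases before the start. That of *Wwtr1* is chr3:57575911-57576160 on the minus strand, with its match 136 bases before the start. For *Ajuba* the window is chr14:54577662-54577911 on the minus strand, with matches at 186 and 164 bases, and for *Crim1* it is chr17:78199998-78200247 on the plus strand, with a match at 79 bases. In GENCODE M21 *Ajuba* spans chr14:54567472-54577558, so its RefSeq start lies outside the gene as annotated there. The *Ankrd1* sites are chr19:36120037-36120066 and chr19:36119950-36119979 on the minus strand, at 210 and 123 bases before the start, and the *Amotl2* site is chr9:102717727-102717756 on the plus strand, at 65 bases.
Yap1: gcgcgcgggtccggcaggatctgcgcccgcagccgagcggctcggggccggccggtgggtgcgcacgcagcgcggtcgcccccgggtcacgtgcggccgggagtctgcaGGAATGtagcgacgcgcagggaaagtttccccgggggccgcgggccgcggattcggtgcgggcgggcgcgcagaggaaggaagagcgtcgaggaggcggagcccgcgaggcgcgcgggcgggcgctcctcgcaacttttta
Wwtr1: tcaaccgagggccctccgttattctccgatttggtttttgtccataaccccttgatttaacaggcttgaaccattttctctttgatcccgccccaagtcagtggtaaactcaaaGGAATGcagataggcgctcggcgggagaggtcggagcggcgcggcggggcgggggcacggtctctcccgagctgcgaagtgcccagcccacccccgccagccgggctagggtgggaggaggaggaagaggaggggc
Ajuba: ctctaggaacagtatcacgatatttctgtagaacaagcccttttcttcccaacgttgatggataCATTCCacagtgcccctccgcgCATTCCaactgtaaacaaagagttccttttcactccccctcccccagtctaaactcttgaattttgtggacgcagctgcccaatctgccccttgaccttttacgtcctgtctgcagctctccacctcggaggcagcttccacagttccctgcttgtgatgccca
Crim1: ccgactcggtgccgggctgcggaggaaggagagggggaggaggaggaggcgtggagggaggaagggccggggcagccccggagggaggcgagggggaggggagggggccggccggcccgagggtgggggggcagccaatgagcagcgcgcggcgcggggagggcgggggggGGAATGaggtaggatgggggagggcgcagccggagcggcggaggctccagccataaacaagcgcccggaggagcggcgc
Ankrd1 at 210: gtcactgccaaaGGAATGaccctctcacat
Ankrd1 at 123: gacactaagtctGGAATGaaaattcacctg
Amotl2 at 65: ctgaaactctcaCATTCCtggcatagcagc
The letters of AP-1 sites (TGANTCA) stood in no window of the 9 genes, against 6.75% of all windows, and those of the serum response element called the CArG box stood in none, against 1.47%. A match describes the letters in the window and no binding was measured here.

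Total counts were 14472462 to 27449516 per library with a median of 22606532.5. The PROTAC libraries were the shallowest, at 14472462 to 21588406, against 22952048 to 27449516 for DMSO. Each of the 10 genes had at least 1227 counts in every library, up to 8874, so all 10 were tested, among 16070 genes that passed the filter on low counts. Replicates differed beyond counting noise, and none was a copy of another (chi-square per degree of freedom 1.74 to 8.81 over 24 pairs). Of 9 SC markers, 6 had at least 10 counts in every library, with *Sox10*, a master regulator of the lineage, at a mean of 20.1 CPM with DMSO (counts per 1000000 counts of the library, its total scaled here and throughout by the trimmed mean of M values, TMM), whereas *S100b*, *Egr2* and *Gap43* reached no more than 18 counts. Of 5 fibroblast markers, the collagen genes *Col1a1* and *Col1a2* were at 392 and 1350 CPM with DMSO and *Pdgfra* at 12.4. *Dcn* had at most 3 counts in a library and *Lum* had 0, so the sums over this list given below are mostly collagen RNA. Of 5 macrophage markers 1, the lysosomal gene *Cd68*, had at least 10 counts in every library and *Ptprc* and *Adgre1* had at most 1 count, with a sum over the list of 3.71 to 4.08 CPM with DMSO, 11.2 to 12 with PROTAC FAK degrader 1, 7.84 to 9.34 with BSJ-04-0146, 6.2 to 7.88 with GSK215 and 3.79 to 6.17 with the kinase inhibitors. The 4 endothelial markers summed to at most 0.79 CPM in any library. The summed level of the 9 SC markers was 50.9 to 53.9 CPM with DMSO, 38.2 to 41 with PROTAC FAK degrader 1, 110 to 123 with VS-4718, 234 to 239 with GSK215, 207 to 226 with BSJ-04-0146, 72.4 to 77.9 with defactinib and GSK2256098 and 48.9 to 53.6 with IN10018. That of 5 fibroblast markers was 1730 to 1780 CPM with DMSO, 994 to 1010 with PROTAC FAK degrader 1, 1330 to 1410 with BSJ-04-0146, 1520 to 1590 with VS-4718, and 1580 to 1820 with the other 4 drugs. These sums differed between the groups whose levels of the 10 genes are compared below, and their part in the results was not tested. In bulk RNA, fewer cells in a given state and less RNA per cell cannot be told apart.

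All 10 genes were well expressed in DMSO-treated MS03 cells. Per kilobase of exon, *Ankrd1* had the highest level at 61.8 CPM per kilobase, followed by *Crim1* at 35.9, *Ajuba* at 33.6, *Nf2* at 26.4, *Myof* at 25.3, *Amotl2* at 23.6, *Tead1* at 22.6, *Wwtr1* at 22.3, *Yap1* at 17.9 and *Lats2* at 13.7. Across the 8 groups, *Ankrd1* varied most, with a ratio of 2.38 between its highest and lowest group mean. *Crim1* (1.68), *Wwtr1* (1.66), *Ajuba* (1.62), *Amotl2* (1.56), *Lats2* (1.52) and *Yap1* (1.49) came next, and *Nf2* (1.2), *Tead1* (1.2) and *Myof* (1.16) varied least. From here on, differences are log2 fold changes from edgeR's quasi-likelihood model, given as value ± standard error, and adjusted *P* values are over the 16070 genes with a threshold of 0.05.

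**Figure D1:**
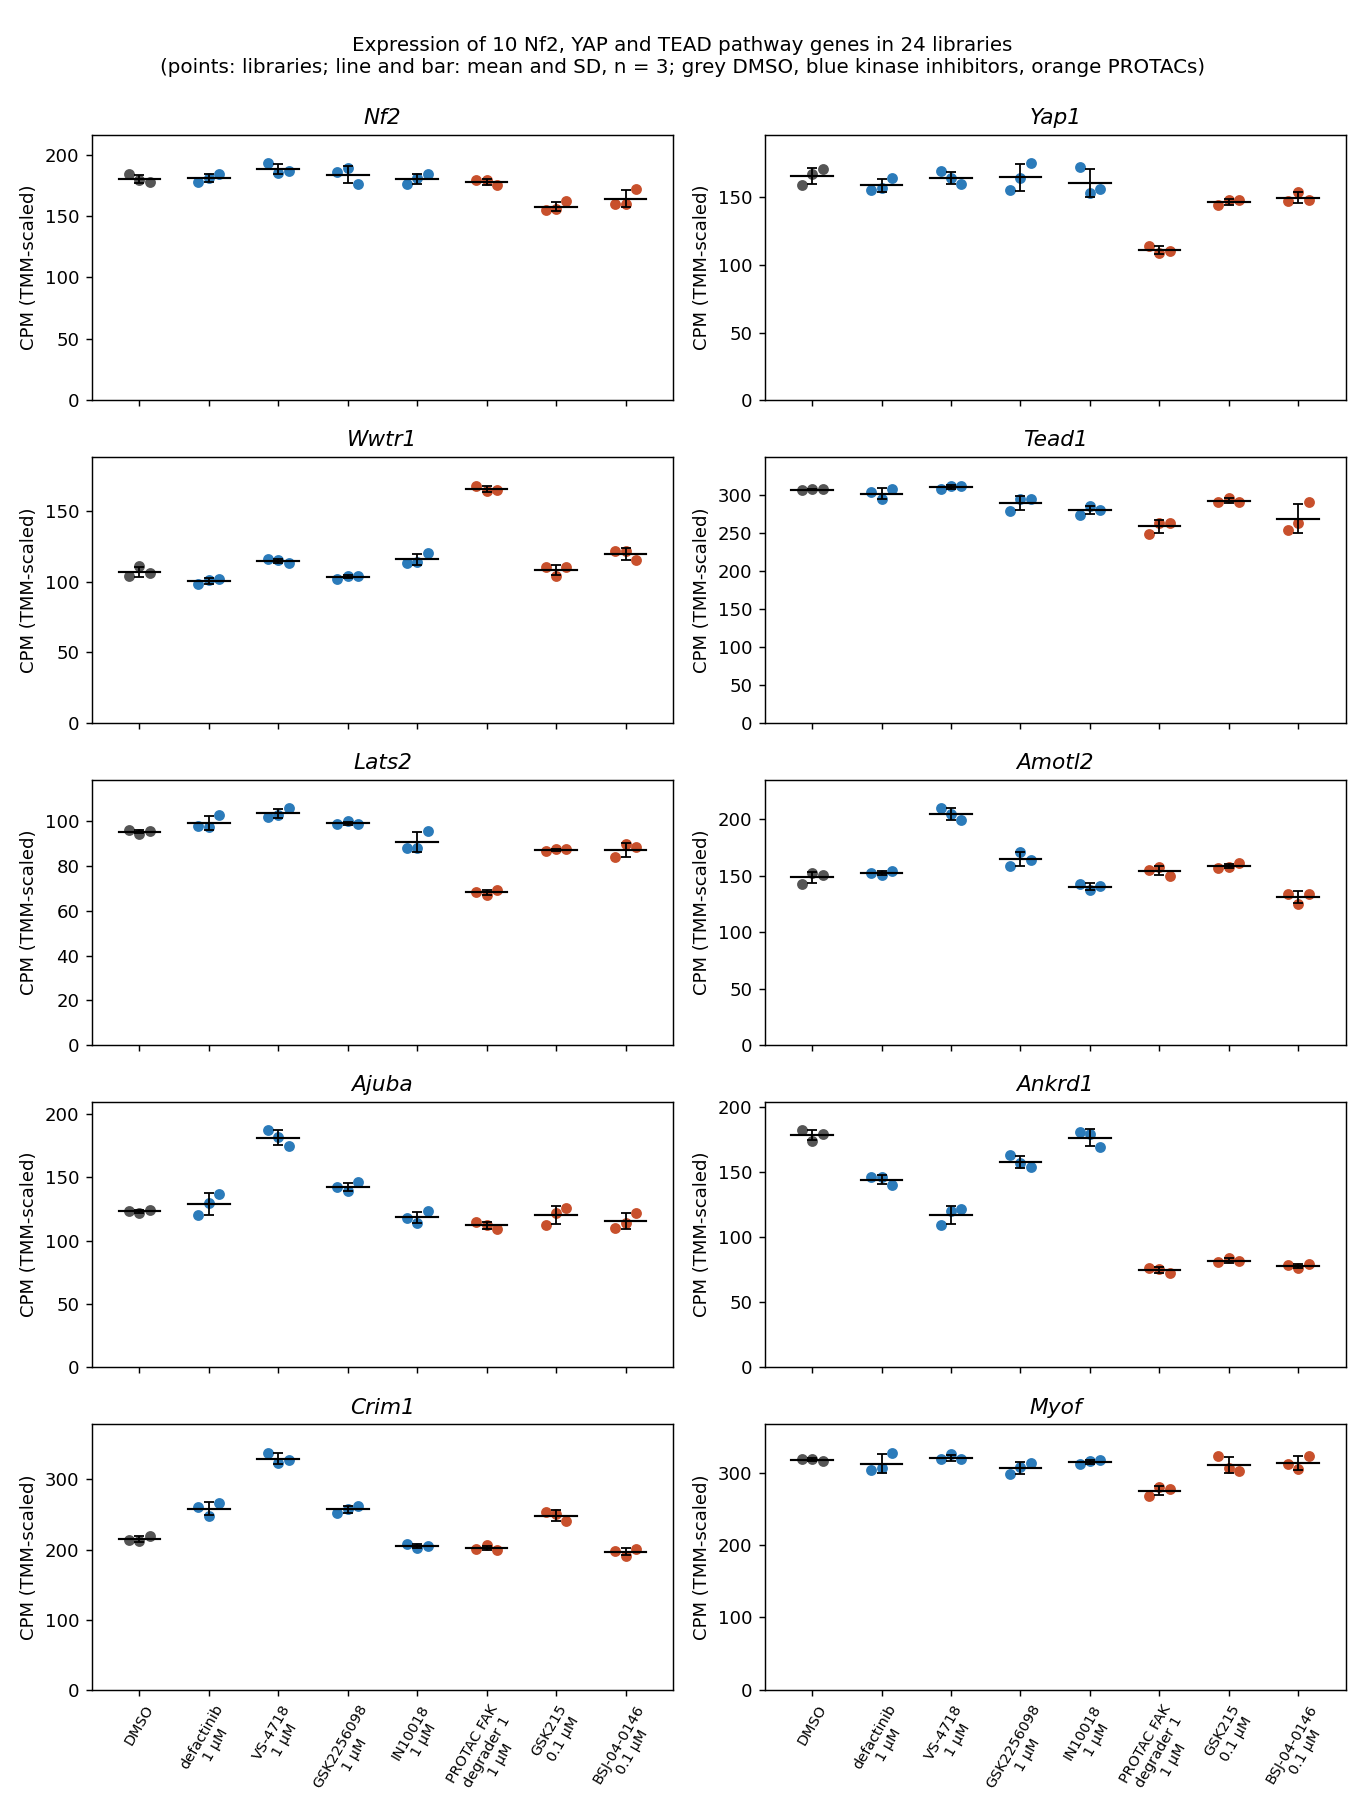
TMM-scaled CPM (linear axis from 0) of the 10 genes in 24 libraries. Points are libraries, lines and bars are the mean and SD of 3 libraries, grey is DMSO, blue the kinase inhibitors and orange the PROTACs. The 9 PROTAC libraries lie lowest for *Ankrd1* (72.2 to 84 CPM), the 3 of VS-4718 highest for *Crim1*, *Amotl2* and *Ajuba*, and the 3 of PROTAC FAK degrader 1 lowest for *Yap1* and *Lats2* and highest for *Wwtr1*.

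*Nf2* lies at chr11:4765845-4849536 on the minus strand (ENSMUSG00000009073; coordinates here and for the other genes are whole genes, exons and introns, of GENCODE M21 on GRCm38). Its counts were 2360 to 5066. They were summed over the gene and so hide which exons Cre removed, and the genotype could not be checked from them. The 3 DMSO libraries had 184, 179 and 178 CPM. *Nf2* RNA was lower with GSK215, where the libraries had 155, 156 and 162 CPM, and with BSJ-04-0146, where they had 160, 160 and 172. All 6 of these libraries were below the 3 of DMSO. The differences were -0.19 ± 0.0332 (adjusted *P* = 3.95e-06) and -0.14 ± 0.0332 (adjusted *P* = 0.000548). Neither call held when libraries were scaled by their totals alone (adjusted *P* = 0.0618 and 0.487). In the other 5 groups the means were 178 to 189 CPM, and no difference from DMSO passed the threshold, although with library totals that of VS-4718, whose 3 libraries were all above DMSO, did so (0.10, adjusted *P* = 0.00989).

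*Lats2* (ENSMUSG00000021959, chr14:57689662-57758388, minus strand) encodes a kinase that phosphorylates YAP and TAZ. DMSO libraries had 96.1, 94.5 and 95.9 CPM, and PROTAC FAK degrader 1 libraries had 68.3, 67.3 and 69.4. The latter were the lowest 3 of the 24, and the difference was -0.48 ± 0.0373 (adjusted *P* = 1.45e-14). *Lats2* was also lower with GSK215 (86.8, 87.6 and 87.6 CPM) and BSJ-04-0146 (83.9, 89.8 and 88.6 CPM), each by 0.13 on the log2 scale (adjusted *P* = 0.003 and 0.00344), calls that were lost with library totals (adjusted *P* = 0.901 and 0.702). With VS-4718 it was higher, at 102, 103 and 106 CPM and a difference of 0.12 ± 0.0351 (adjusted *P* = 0.00634). This call was lost without VS-4718 replicate 3 (adjusted *P* = 0.0587). The other kinase inhibitors gave means of 90.7 to 99.4 CPM, and none passed the threshold.

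*Amotl2* (ENSMUSG00000032531, chr9:102716672-102733418, plus strand), an angiomotin that restrains YAP, had 143, 152 and 151 CPM with DMSO. VS-4718 gave the highest 3 libraries, at 210, 205 and 199 CPM, a difference of 0.46 ± 0.0335 (adjusted *P* = 2.63e-14). It was also higher with GSK2256098, at 159, 171 and 164 CPM (0.15 ± 0.034, adjusted *P* = 0.00266), above every DMSO library. Without DMSO replicate 1 or GSK2256098 replicate 2 the adjusted *P* was 0.0501 and 0.0521. The PROTACs at 0.1 µM moved *Amotl2* in opposite directions. GSK215 libraries had 157, 158 and 161 CPM, a difference of 0.09 ± 0.0347 (adjusted *P* = 0.0211), and this call was lost without DMSO replicate 1 (adjusted *P* = 0.164) or GSK215 replicate 3 (0.0973) and with no filter (0.108). With library totals the difference was larger (0.22, adjusted *P* = 1.22e-06). BSJ-04-0146 libraries had 134, 125 and 134 CPM, all below DMSO (-0.18 ± 0.0353, adjusted *P* = 2.39e-05), with an adjusted *P* of 0.0643 under library totals. PROTAC FAK degrader 1, at 155, 158 and 150 CPM, overlapped DMSO and did not pass the threshold (0.05 ± 0.0344, adjusted *P* = 0.179), although it did with library totals (0.13, adjusted *P* = 0.000723). IN10018 passed it, as lower, only when fitted with DMSO alone (-0.08, adjusted *P* = 0.0499) or without DMSO replicate 1 (-0.11, 0.049).

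*Ajuba* (ENSMUSG00000022178, chr14:54567472-54577558, minus strand), whose protein restrains LATS, had 123, 122 and 124 CPM with DMSO. As for *Amotl2*, VS-4718 gave the highest libraries, at 187, 182 and 175 CPM (0.56 ± 0.0415, adjusted *P* = 4.27e-14), and GSK2256098 the next, at 142, 139 and 146 CPM (0.21 ± 0.0423, adjusted *P* = 0.000459). Neither overlapped any other group. Defactinib, at 120, 130 and 137 CPM, came next and overlapped DMSO. *Ajuba* fell slightly with PROTAC FAK degrader 1, to 115, 112 and 109 CPM (-0.13 ± 0.0436, adjusted *P* = 0.0077), a call lost with library totals (adjusted *P* = 0.309). With IN10018, GSK215 and BSJ-04-0146 the means were 118, 120 and 115 CPM and did not pass the threshold, although that of BSJ-04-0146 did so as lower with no filter on low counts (-0.11, adjusted *P* = 0.0148) and without BSJ-04-0146 replicate 3 (-0.14, 0.0134).

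The coactivator genes moved in opposite directions with PROTAC FAK degrader 1. *Yap1* (ENSMUSG00000053110, chr9:7931999-8004596, minus strand) had 159, 167 and 171 CPM with DMSO and 114, 109 and 110 with PROTAC FAK degrader 1, which were the lowest 3 of the 24 libraries (-0.57 ± 0.0408, adjusted *P* = 1.41e-15). *Wwtr1* (ENSMUSG00000027803, chr3:57455649-57575910, minus strand) had 104, 111 and 106 CPM with DMSO and 168, 164 and 165 with the same PROTAC, the highest 3 of the 24 (0.63 ± 0.0341, adjusted *P* = 2.37e-19). In no other group did either gene move by as much. *Yap1* was lower with GSK215, at 144, 148 and 148 CPM (-0.18 ± 0.0402, adjusted *P* = 0.000296), and with BSJ-04-0146, at 147, 154 and 148 CPM (-0.15 ± 0.0403, adjusted *P* = 0.00217). All 6 libraries were below DMSO, but with library totals neither call held (adjusted *P* = 0.262 and 0.444). The 4 kinase inhibitors gave *Yap1* means of 159 to 165 CPM, overlapping the DMSO libraries, and none passed the threshold.

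*Wwtr1* was also higher with BSJ-04-0146, at 122, 122 and 115 CPM (0.16 ± 0.0353, adjusted *P* = 0.000119), and remained so with library totals (0.27, adjusted *P* = 8.76e-09). Smaller differences were called with VS-4718, at 116, 115 and 113 CPM (0.10 ± 0.0343, adjusted *P* = 0.017), with IN10018, at 113, 114 and 120 CPM (0.11 ± 0.0347, adjusted *P* = 0.0256), and, in the other direction, with defactinib, at 98, 101 and 102 CPM (-0.09 ± 0.0349, adjusted *P* = 0.0489). These last 3 calls each depended on single libraries, and each was lost with no filter on low counts (adjusted *P* = 0.0702, 0.0535 and 0.0972). The VS-4718 call was lost without DMSO replicate 1 or 3 or VS-4718 replicate 1 (adjusted *P* = 0.168, 0.102 and 0.0954), the IN10018 call without DMSO replicate 1 or 3 or IN10018 replicate 3 (0.145, 0.0995 and 0.194), and the defactinib call without any of DMSO replicates 2 and 3 and defactinib replicates 1, 2 and 3 (0.0564 to 0.266). GSK2256098 and GSK215, with means of 103 and 108 CPM, did not pass the threshold, but GSK215 did with library totals (0.13, adjusted *P* = 0.00117). Per kilobase of exon, the ratio of *Wwtr1* to *Yap1* was 1.25 ± 0.0447 with DMSO (SD, n = 3) and 2.88 ± 0.0258 with PROTAC FAK degrader 1. It was 1.55 ± 0.0548 with BSJ-04-0146, and its means were 1.22 to 1.42 in the other 5 groups. This ratio is taken within a library, so it does not depend on how libraries are scaled.

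**Figure D2:**
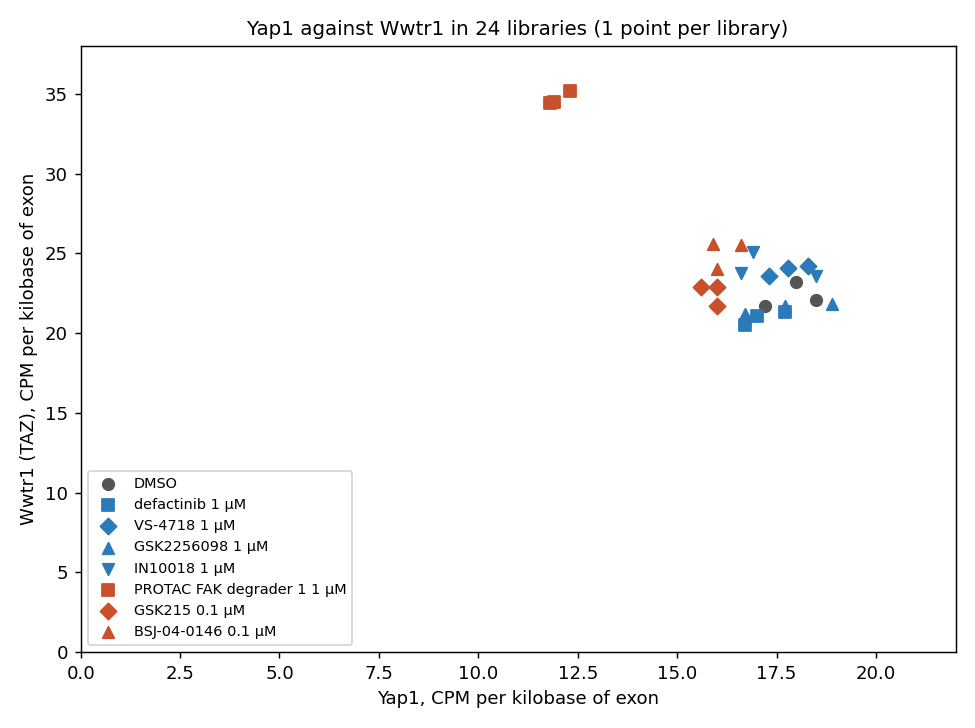
Level of *Wwtr1* (vertical axis) against that of *Yap1* (horizontal axis) in CPM per kilobase of exon, 1 point for each of 24 libraries, linear axes from 0. The 3 libraries of PROTAC FAK degrader 1 lie apart from the other 21, with less *Yap1* and more *Wwtr1*, at a ratio of 2.85 to 2.9 against 1.15 to 1.61 in the rest.

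*Tead1* (ENSMUSG00000055320, chr7:112679318-112906807, plus strand), the DNA-binding partner, had 306, 307 and 307 CPM with DMSO. It was lower with PROTAC FAK degrader 1, at 249, 263 and 263 CPM (-0.25 ± 0.0347, adjusted *P* = 6e-08), and this call held with library totals (adjusted *P* = 0.000158). BSJ-04-0146 libraries were spread more widely, at 253, 263 and 290 CPM, all below DMSO (-0.19 ± 0.0349, adjusted *P* = 1.12e-05), with an adjusted *P* of 0.0568 under library totals. IN10018, at 274, 285 and 280 CPM, also gave less *Tead1* (-0.13 ± 0.0345, adjusted *P* = 0.00633). The remaining drugs gave means of 289 to 311 CPM and did not pass the threshold. Among them, the 3 libraries each of GSK2256098 (278 to 294 CPM) and GSK215 (290 to 296 CPM) were all below DMSO, and both drugs were called as lower when fitted with DMSO alone (-0.09, adjusted *P* = 0.00808, and -0.07, 0.0164).

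*Ankrd1* (ENSMUSG00000024803, chr19:36111961-36120099, minus strand) fell with 6 of the 7 drugs, and by more than any other of the 10 genes. DMSO libraries had 182, 174 and 179 CPM. PROTAC FAK degrader 1 libraries had 76.6, 75.7 and 72.2, those of BSJ-04-0146 had 78.6, 76.5 and 79.4, and those of GSK215 had 80.6, 84 and 81.5. The means were thus 42%, 43.8% and 46% of that with DMSO, with differences of -1.25 ± 0.0388 (adjusted *P* = 5.37e-27), -1.19 ± 0.0392 (1.17e-25) and -1.12 ± 0.0389 (6.75e-25). The kinase inhibitors were graded. VS-4718 libraries had 109, 120 and 122 CPM (-0.61 ± 0.0364, adjusted *P* = 9.52e-17), those of defactinib 146, 146 and 140 (-0.31 ± 0.036, 3.53e-08) and those of GSK2256098 163, 157 and 154 (-0.18 ± 0.0358, 0.000678). IN10018, at 181, 179 and 169 CPM, overlapped DMSO and did not pass the threshold (-0.02 ± 0.0357, adjusted *P* = 0.83, 95% interval -0.09 to 0.06). From high to low the order was DMSO, IN10018, GSK2256098, defactinib, VS-4718, GSK215, BSJ-04-0146 and PROTAC FAK degrader 1. DMSO and IN10018 overlapped, as did BSJ-04-0146 and PROTAC FAK degrader 1, and the other 5 neighbouring pairs did not. Each of the 6 calls held in the 12 alternatives run for it, 6 of analysis and 6 leaving out 1 library, the highest adjusted *P* being 0.00837 for GSK2256098.

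*Crim1* (ENSMUSG00000024074, chr17:78200248-78376592, plus strand) moved otherwise than *Ankrd1*, although both are listed as targets. DMSO libraries had 214, 212 and 219 CPM. VS-4718 gave 338, 323 and 328 CPM, the highest 3 libraries and the largest rise among the 10 genes with this drug (0.62 ± 0.0308, adjusted *P* = 4.49e-19). It also rose with defactinib, to 261, 248 and 266 CPM (0.26 ± 0.0311, adjusted *P* = 3.79e-08), with GSK2256098, to 252, 258 and 262 CPM (0.26 ± 0.0311, 1.01e-07), and with GSK215, to 254, 251 and 240 CPM (0.21 ± 0.0315, 4.85e-07). None of these 12 libraries overlapped DMSO. It fell with BSJ-04-0146, to 198, 191 and 201 CPM (-0.13 ± 0.032, adjusted *P* = 0.000627), and with PROTAC FAK degrader 1, to 201, 206 and 200 CPM (-0.09 ± 0.0317, 0.0121). Under library totals these 2 falls were -0.02 (adjusted *P* = 0.593) and -0.01 (0.845), and the latter call was also lost without DMSO replicate 3 or PROTAC FAK degrader 1 replicate 1 or 3 (0.0562 to 0.063). IN10018, at 208, 202 and 205 CPM, did not pass the threshold. *Crim1* shares 123 exon bases with *Fez2* on the opposite strand (at most 3170 counts in a library), and since no strand setting is stated, reads from that stretch cannot be assigned.

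*Myof* (ENSMUSG00000048612, chr19:37899036-38043577, minus strand) changed with 1 of the 7 drugs. DMSO libraries had 319, 320 and 316 CPM and those of PROTAC FAK degrader 1 had 268, 281 and 278, the lowest 3 of the 24 (-0.21 ± 0.0321, adjusted *P* = 4.42e-07). This difference was -0.12 with library totals (adjusted *P* = 0.00118). The other means were 307 to 321 CPM. With library totals *Myof* was 0.09 higher with GSK215 (adjusted *P* = 0.0224) and with BSJ-04-0146 (0.0246), where the TMM-scaled differences were -0.03 and -0.02.

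**Figure D3:**
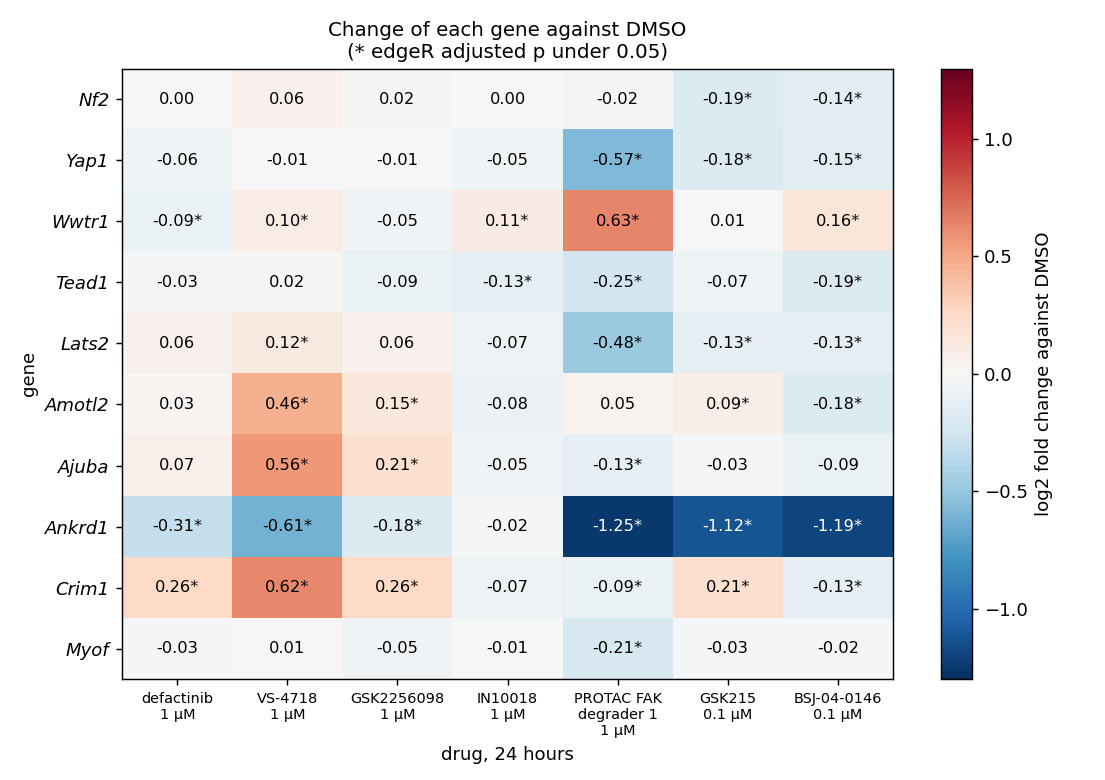
Log2 fold change against DMSO of each of the 10 genes (rows) with each of the 7 drugs (columns), from edgeR with TMM scaling. Blue is lower, red is higher, and an asterisk marks an adjusted *P* under 0.05. *Ankrd1* is marked as lower in 6 columns, whereas *Crim1* is marked as higher in 4 and lower in 2, the 2 being without a call when libraries are scaled by totals.

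The number of the 10 genes called differed between drugs, as did the share of all genes called given beside it, and neither difference was tested. Since the genes were chosen with earlier results of these data known, the counts are a description. The 7 comparisons share the same 3 DMSO libraries. With defactinib 1 was higher and 2 lower, against a background of 22.4% of all genes called, 11.4% higher and 11.0% lower. VS-4718 gave 5 higher and 1 lower (background 39.2%, 20.4% higher and 18.9% lower), and GSK2256098 gave 3 higher and 1 lower (12.5%, 6.36% and 6.09%). With IN10018 1 was higher and 1 lower (13.3%, 6.44% and 6.85%). PROTAC FAK degrader 1 gave 1 higher and 7 lower against 66.8% of all genes, 34.1% higher and 32.7% lower. BSJ-04-0146 also gave 1 higher and 7 lower (54.6%, 27.7% and 26.9%), and GSK215 gave 2 higher and 4 lower (54.7%, 27.4% and 27.2%). The median difference of the 10 genes was -0.169 with PROTAC FAK degrader 1, -0.134 with BSJ-04-0146 and -0.052 with GSK215, against medians of 0.0045, 0.0176 and 0.0211 over all genes tested. With library totals these medians of the 10 genes were -0.087, -0.025 and 0.071, the last having changed sign. With the kinase inhibitors the median difference was 0.082 for VS-4718, 0.008 for GSK2256098, -0.01 for defactinib (0.007 with library totals) and -0.049 for IN10018, against -0.0044 to 0.0048 over all genes. The sign for GSK2256098 and defactinib depended on single libraries, being negative for GSK2256098 without DMSO replicate 1 or GSK2256098 replicate 2 or 3 (-0.005 to 0.022 over the 6 libraries left out in turn) and positive for defactinib without its replicate 1 (-0.025 to 0.003). That for IN10018 was -0.063 to -0.028, the last without its replicate 2.

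Scaling by library totals moved the median of all genes from 0.021 to 0.14 with GSK215 and from 0.018 to 0.13 with BSJ-04-0146. The small differences of these drugs are therefore relative to that choice. Relative to the median of all genes, *Nf2* was at -0.22 with GSK215 and -0.15 with BSJ-04-0146, *Yap1* at -0.2 and -0.16, *Lats2* at -0.15 and -0.14, and *Ankrd1* at -1.14 and -1.21. These values are the same under both scalings by construction, since a scaling moves all genes alike, and they do not bear on the calls that were lost. Among all genes tested, the split of higher and lower calls with library totals was 6190 and 2867 with GSK215 (4407 and 4379 with TMM), 6018 and 2966 with BSJ-04-0146 (4451 and 4320) and 4015 and 2394 with VS-4718 (3273 and 3030). With PROTAC FAK degrader 1 it was 6280 and 4458 (5484 and 5257), with defactinib 2063 and 1360 (1828 and 1766), with GSK2256098 1242 and 808 (1022 and 979) and with IN10018 1197 and 959 (1035 and 1101). For the 10 genes, library totals gave 4 higher and 1 lower with GSK215 and 2 higher and 1 lower with BSJ-04-0146, *Ankrd1* being the 1 that was lower in each. With PROTAC FAK degrader 1 they gave 2 higher, *Wwtr1* and *Amotl2*, and 5 lower, *Ajuba* and *Crim1* being lost. The background for GSK2256098 fell from 2001 to 1298 genes without its replicate 3, and that for IN10018 from 2136 to 1380 without DMSO replicate 2 and to 1395 without IN10018 replicate 3. Of the 10 genes, those called with IN10018 fell from 2 to 1 without IN10018 replicate 3 or DMSO replicate 3.

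Drugs given at the same dose were compared directly, 3 comparisons of 10 genes each. PROTAC FAK degrader 1 was set against the 4 kinase inhibitors, all at 1 µM, with equal weight for each inhibitor. Of the 10 genes 1 was higher and 8 were lower, against a background of 72.3% of all genes, 36.7% higher and 35.6% lower. Over all genes, library totals gave 6528 higher and 5107 lower, against 5897 and 5714 with TMM. *Wwtr1* was higher by 0.62 ± 0.0262 (95% interval 0.56 to 0.67, adjusted *P* = 6.89e-23), with a mean of 166 CPM. *Ankrd1* was lower (-0.97, interval -1.04 to -0.9, adjusted *P* = 3.72e-26), as were *Yap1* (-0.54, -0.61 to -0.47, 1.32e-17) and *Lats2* (-0.52, -0.59 to -0.46, 2.14e-18). For these 4 genes, as for *Tead1* and *Myof*, the 3 PROTAC libraries did not overlap any of the 12 kinase inhibitor libraries. *Crim1* (-0.36, adjusted *P* = 1.01e-15) and *Ajuba* (-0.33, 6.45e-11) were lower on average, but their PROTAC libraries overlapped those of IN10018. *Tead1* and *Myof* were each lower by 0.19 (adjusted *P* = 1.25e-07 and 3.41e-08). *Amotl2* was lower by 0.09 (0.00503), a call lost without PROTAC FAK degrader 1 replicate 3 (0.119) and with library totals (0.44). *Nf2* did not pass the threshold, at -0.05 with an interval of -0.1 to 0.01.

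GSK215 and BSJ-04-0146, both at 0.1 µM, differed in 4 of the 10 genes, 3 higher and 1 lower with GSK215, against a background of 22.5% of all genes, 9.88% higher and 12.6% lower. Over all genes, library totals gave 1767 higher and 1802 lower, against 1588 and 2027 with TMM. *Crim1* was higher with GSK215 by 0.34 ± 0.0322 (interval 0.27 to 0.41, adjusted *P* = 2.27e-10) and *Amotl2* by 0.28 ± 0.0359 (0.2 to 0.35, 1.73e-07). *Tead1* was higher by 0.12 (0.05 to 0.2, adjusted *P* = 0.00948), a call lost without BSJ-04-0146 replicate 1 (0.119) or 2 (0.061). *Wwtr1* was lower with GSK215 (-0.15, -0.23 to -0.08, adjusted *P* = 0.00138). In none of these 4 did the groups overlap. *Ankrd1*, low with both, differed by 0.07 with an interval of -0.02 to 0.16 (adjusted *P* = 0.267). The intervals for *Nf2* (-0.13 to 0.02), *Yap1* (-0.12 to 0.06), *Lats2* (-0.08 to 0.08), *Ajuba* (-0.04 to 0.16) and *Myof* (-0.08 to 0.06) also contained 0.

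VS-4718 and defactinib, both at 1 µM, differed in 5 of the 10 genes, 4 higher and 1 lower with VS-4718, against 34.0% of all genes, 18.0% higher and 16.0% lower. Over all genes, library totals gave 3340 higher and 2241 lower, against 2892 and 2568 with TMM. *Ajuba* was higher with VS-4718 by 0.49 ± 0.0415 (interval 0.4 to 0.57, adjusted *P* = 3.94e-12), *Amotl2* by 0.43 ± 0.0335 (0.35 to 0.5, 4.75e-13), *Crim1* by 0.35 ± 0.0306 (0.29 to 0.42, 6.83e-12) and *Wwtr1* by 0.19 ± 0.0346 (0.12 to 0.27, 2.12e-05). *Ankrd1* was lower (-0.3, -0.38 to -0.22, adjusted *P* = 2.51e-08). The groups did not overlap for any of these 5 genes. For the rest the intervals were -0.01 to 0.13 (*Nf2*), -0.03 to 0.14 (*Yap1*), -0.03 to 0.12 (*Tead1*), -0.02 to 0.13 (*Lats2*) and -0.03 to 0.11 (*Myof*).

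**Figure D4:**
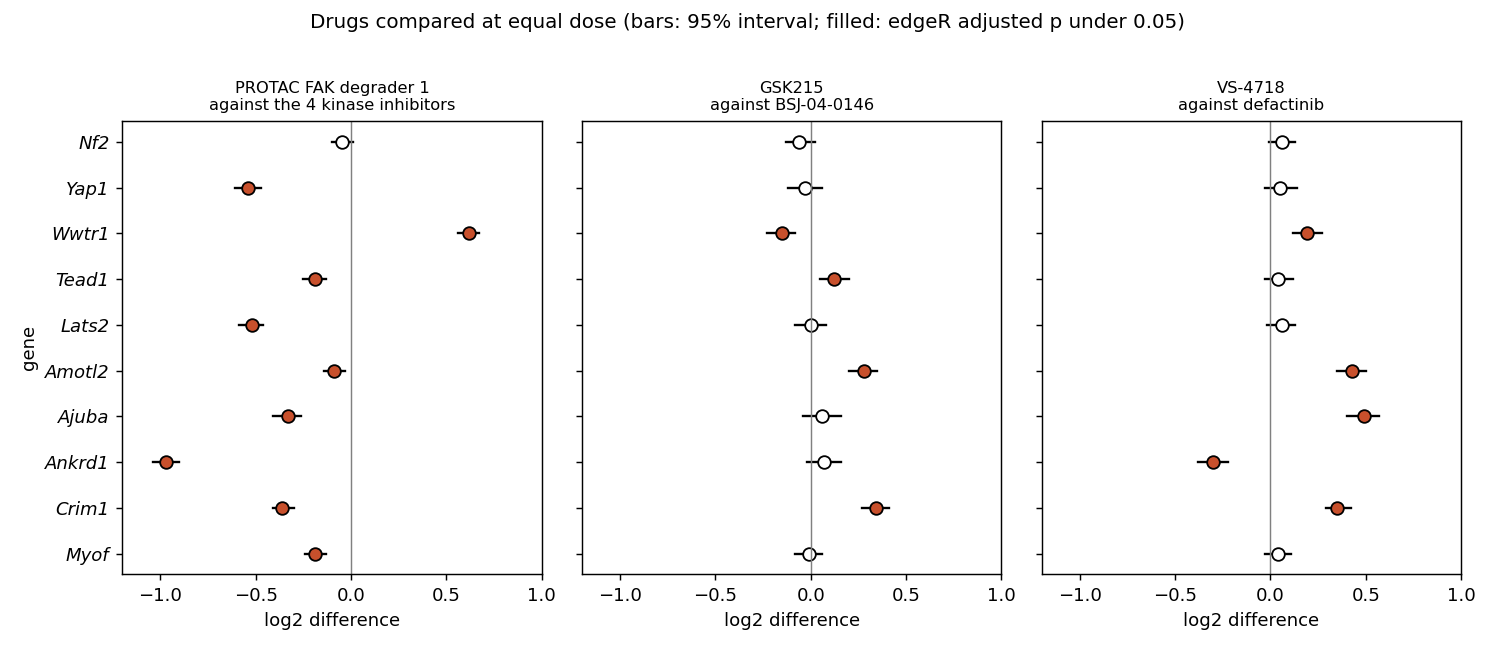
Log2 differences between drugs given at the same dose, for each of the 10 genes (rows), from edgeR. Circles are the estimates, bars the 95% interval, and filled circles have an adjusted *P* under 0.05. *Ankrd1* is lower with PROTAC FAK degrader 1 than with the kinase inhibitors (-0.97) and lower with VS-4718 than with defactinib (-0.3), and its interval contains 0 between GSK215 and BSJ-04-0146.

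The other genes of the pathway were taken from lists of the Hippo cascade (14 of 15 tested), YAP and TAZ partners (10 of 10), the other TEAD factors (3 of 3), further YAP and TEAD targets (18 of 21) and the relatives of merlin, ezrin, radixin and moesin (ERM, 3 of 3). The low counts of *Dchs1*, *Foxf2*, *Ccdc80* and *Lox*, 12 or fewer per library, kept them out of the test. The counts that follow stand against the backgrounds of all genes given above, which with the PROTACs were 66.8% called (PROTAC FAK degrader 1), 54.7% (GSK215) and 54.6% (BSJ-04-0146). In the Hippo cascade, 3 genes were higher and 8 lower with PROTAC FAK degrader 1, 2 and 8 with GSK215 and 1 and 9 with BSJ-04-0146, out of 14, with medians of -0.183, -0.164 and -0.256, or -0.101, -0.042 and -0.147 with library totals. The largest fall was that of *Wwc1* (KIBRA), a scaffold that acts with merlin upstream of LATS, from 202 CPM with DMSO to 118 with GSK215 (-0.78 ± 0.0357, adjusted *P* = 5.12e-21) and 117 with BSJ-04-0146 (-0.79 ± 0.0358, 2.93e-21). With PROTAC FAK degrader 1 it was that of *Stk4* (MST1), the kinase that activates LATS (-0.38 ± 0.0409, adjusted *P* = 9.63e-11), and the largest rise was that of *Taok3*, a kinase upstream of MST1 (0.49 ± 0.0744, 2.44e-07). With VS-4718, 6 were higher and 5 lower, and *Fat4*, an atypical cadherin, rose most (0.55 ± 0.0773, adjusted *P* = 2.44e-07). Defactinib gave 2 higher and 4 lower, GSK2256098 1 and 2, and IN10018 3 that were lower. Under library totals the split was 5 higher and 7 lower with PROTAC FAK degrader 1, 4 and 6 with GSK215, 5 and 8 with BSJ-04-0146, 6 and 4 with VS-4718, 2 and 2 with defactinib and 2 and 1 with GSK2256098, where the balance turned, and no call of the TMM scaling turned its sign.

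Among the YAP and TAZ partners, PROTAC FAK degrader 1 moved the other angiomotins in opposite directions. *Amotl1* rose from 141 to 219 CPM (0.64 ± 0.0298, adjusted *P* = 2.9e-21), whereas *Amot* fell from 74.3 to 47.8 CPM (-0.64 ± 0.0456, 1.54e-15). With this drug 4 partners were higher and 5 lower. *Vgll4*, a cofactor that competes with YAP for TEAD, rose most with GSK215 (0.64 ± 0.048, adjusted *P* = 1.51e-14) and BSJ-04-0146 (0.7 ± 0.0479, 9.32e-16), and *Csnk1e*, a casein kinase that acts on YAP after LATS, fell most (-0.49 and -0.44). These drugs gave 2 higher and 2 lower, and 3 higher and 4 lower. *Vgll3*, another TEAD cofactor, rose most with VS-4718, from 43 to 66.9 CPM (0.63 ± 0.0469, adjusted *P* = 4.28e-14), where 4 were higher and 1 lower. Defactinib gave 1 and 2, and IN10018 gave 3 that were lower. With GSK2256098 edgeR called 0 of the 10, as did DESeq2 and limma, and 2 had an unadjusted *P* under 0.05, whereas library totals gave 1, *Vgll4*, as higher (0.14, adjusted *P* = 0.0414). The split under library totals was 4 higher and 4 lower with PROTAC FAK degrader 1, 5 and 2 with GSK215, 4 and 1 with BSJ-04-0146, where 3 calls were lost and the balance turned, and 7 and 1 with VS-4718.

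Of the other TEAD genes, with each PROTAC 2 of the 3 were higher and 1, *Tead4*, lower, at -0.37 with PROTAC FAK degrader 1, -0.51 with GSK215 and -0.5 with BSJ-04-0146. Among all genes tested, 34.1%, 27.4% and 27.7% were higher with these PROTACs, in that order, and 32.7%, 27.2% and 26.9% lower. *Tead2* rose most with PROTAC FAK degrader 1 (0.42 ± 0.0556, adjusted *P* = 1.74e-08) and BSJ-04-0146 (0.61 ± 0.0557, 4e-12), and *Tead3* with GSK215 (0.34 ± 0.0581, 4.94e-06). *Tead3* was also the 1 higher gene with defactinib (0.24), VS-4718 (0.29) and GSK2256098 (0.24), and *Tead2* with IN10018 (0.17). Library totals left these counts as they were. All 3 ERM genes were lower with each PROTAC under either scaling, *Rdx* (radixin) by most, at -0.64 ± 0.034 with PROTAC FAK degrader 1 (adjusted *P* = 1.72e-19), -0.31 with GSK215 and -0.48 with BSJ-04-0146. With VS-4718 2 were higher and *Rdx* was lower by 0.10 (adjusted *P* = 0.016, and 0.159 with library totals), with defactinib only *Ezr* (ezrin) was called, as higher (0.28), and with IN10018 only *Rdx*, as lower (-0.13). GSK2256098 gave 0 of 3 by edgeR, DESeq2 and limma, and 0 at an unadjusted *P* under 0.05.

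Further YAP and TEAD targets did not move as 1 group. PROTAC FAK degrader 1 gave 2 higher and 11 lower of 18 (background 34.1% higher and 32.7% lower), with a median of -0.506 (-0.424 with library totals) against 0.0045 over all genes. *Ccn2* (CTGF), a matricellular protein and a standard YAP readout, fell from 11.3 to 2.4 CPM (-2.23 ± 0.127, adjusted *P* = 1.55e-18), and *F3*, tissue factor, rose from 7.39 to 13.7 CPM (0.89 ± 0.0928, 5.11e-11). With the other drugs the *Ccn2* means were 8.12 CPM (GSK215), 12.2 (BSJ-04-0146) and 8.89 to 13.3 (kinase inhibitors). GSK215 gave 7 higher and 9 lower (27.4% and 27.2%) and BSJ-04-0146 4 higher and 8 lower (27.7% and 26.9%). Their medians were -0.194 and -0.066, or -0.072 and 0.042 with library totals, the last having changed sign. With both, *Ccn1* (CYR61), another matricellular readout, fell most, from 333 CPM to 195 (-0.77 ± 0.0313, adjusted *P* = 1.01e-22) and 163 (-1.03 ± 0.0318, 1.34e-26), and *Thbs1*, thrombospondin, rose most, from 631 CPM to 1630 (1.37 ± 0.0373, 3.62e-28) and 1170 (0.89 ± 0.0371, 2.6e-22). *Thbs1* also rose most with VS-4718 (0.73 ± 0.0369, adjusted *P* = 8.43e-19) and GSK2256098 (0.29 ± 0.0369, 4.52e-07), where 4 and 3 targets were higher and 5 and 2 lower (39.2% and 12.5% of all genes called). It was also higher with defactinib (0.44), but lower with PROTAC FAK degrader 1, at 212 CPM (-1.57 ± 0.0387, adjusted *P* = 3.44e-30), and with IN10018, at 520 CPM (-0.28 ± 0.0371, 1.37e-06). Defactinib gave 5 higher and 2 lower (22.4% of all genes called). IN10018 gave 4 lower (13.3%), with *Ccn1* the largest fall (-0.37 ± 0.0305, adjusted *P* = 1.76e-11). With library totals the split became 4 and 11 (PROTAC FAK degrader 1), 7 and 7 (GSK215, where 1 call turned its sign), 7 and 8 (BSJ-04-0146) and 5 and 2 (VS-4718, where 3 calls were lost).

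**Figure D5:**
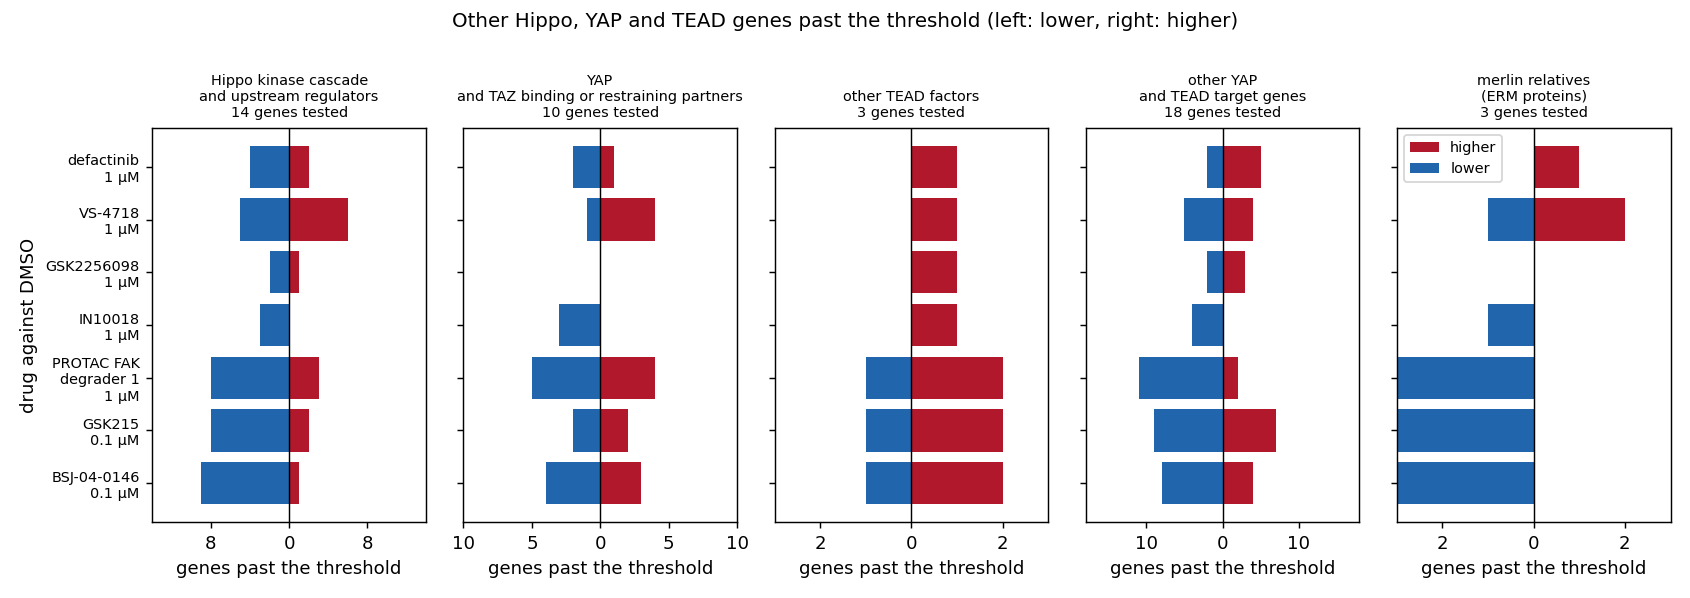
Number of other pathway genes past the threshold against DMSO with each drug (rows), by list (panels), with TMM scaling. Bars to the left count genes that were lower and bars to the right genes that were higher, and each panel spans the number of genes tested. All 3 ERM genes are lower with each PROTAC, and 11 of 18 other targets are lower with PROTAC FAK degrader 1 (also 11 with library totals). Among all genes tested, 32.7% are lower with PROTAC FAK degrader 1, 27.2% with GSK215 and 26.9% with BSJ-04-0146.

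At equal dose, PROTAC FAK degrader 1 was compared with the kinase inhibitors over the same lists, and 12 of 18 further targets were lower and 3 higher (background 35.6% and 36.7%), *Ccn2* again the largest fall (-2.16 ± 0.111, adjusted *P* = 3.61e-20), and *Amotl1* was the partner that was higher by most (0.74 ± 0.0228, 1.47e-27). GSK215 and BSJ-04-0146 differed in 7 of the 18 targets (background 22.5%), 6 higher and 1 lower with GSK215, and the latter was *Ccn2* (-0.6 ± 0.106, adjusted *P* = 3.45e-05). VS-4718 and defactinib differed in 9 (background 34.0%), 4 higher and 5 lower with VS-4718, and *Vgll3* was the partner that differed most (0.66 ± 0.0473, 2.84e-14).

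Over the 8 group means of log2(CPM + 4), the 10 genes fell into patterns that are given as a description, each point being the mean of 3 libraries that all the genes share. *Yap1* ran with *Lats2* (Pearson's r = 0.957) and *Myof* (0.932), and against *Wwtr1* (-0.903). For each of these genes the mean with PROTAC FAK degrader 1 lay apart from all other groups, and r without that group was not computed. That mean was 111 CPM against 147 to 165 for *Yap1* and 68.3 against 87.3 to 104 for *Lats2*. For *Myof* it was 276 against 307 to 321 and for *Wwtr1* 166 against 100 to 120. *Crim1* ran with *Ajuba* (0.919) and *Amotl2* (0.909). Among 9842 other named genes with a mean of at least 5 CPM, those most like *Yap1* were *Mcm4* (0.998), a subunit of the replicative helicase, and *Dnmt1* (0.996), the maintenance DNA methyltransferase. Those most like *Lats2* were *Tspan4* and *Eif2ak1* (0.995 each), like *Wwtr1* *Morn4* (0.994) and *Usf1* (0.992), like *Ankrd1* *Zfp367* (0.995) and *Efl1* (0.994), and like *Myof* *C87436* (0.991) and *Skp1a* (0.984). The likeness was lower for *Tead1*, with *Tmem216* (0.977) and *Mbnl1* (0.97), *Nf2*, with *Aco1* (0.973) and *Ap2a2* (0.963), *Ajuba*, with *Arid1a* (0.97) and *Rapgef2* (0.964), *Crim1*, with *Fat4* (0.962) and *Nfrkb* (0.95), and *Amotl2*, with *Lrrk1* (0.959) and *Dlgap4* (0.928). These values come from 8 points and are no test.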

How the data were processed

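RNA of 24 MS03 libraries was poly(A) selected, prepared with the NEBNext Ultra II kit and sequenced by a commercial service. The authors deposited raw counts, whole numbers of reads for each of 49315 Ensembl genes in each library, without normalization. The submitters' processing notes name Trimmomatic 0.36, STAR 2.5.2b, featureCounts, Subread 1.5.2 and GRCm38. The annotation release and the strand setting are not given in the sources used here, so reads of overlapping genes on opposite strands may be mixed. Columns were matched to samples by the library number in the sample descriptions. Of 49315 identifiers, 49056 were in GENCODE M21, which gave coordinates and exon lengths, and start regions came from RefSeq.

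The counts were fitted in R 4.3.3 with edgeR 4.0.16 (TMM, filterByExpr, glmQLFit and glmQLFTest), as 1 model of 24 libraries with a coefficient per group and 16 residual degrees of freedom. Tests were two-sided, with Benjamini-Hochberg adjustment across the 16070 genes tested. For a standard error, the absolute log2 fold change was divided by the root of its F value, and intervals use 16 degrees of freedom. CPM and log2(CPM + 4), the scale in the study's methods, were computed for levels. If the replicates were not separate cultures, *P* values measure only the spread between these libraries, which may be technical. Before it was run on the counts, the procedure was tried on simulated data. There a small set of genes was changed in the defactinib group only, equally up and down. The simulation therefore did not probe the choice between TMM and library totals.

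Alternatives were library totals in place of TMM, a block for the replicate number, DESeq2 1.42.0, the unfiltered table, limma 3.58.1 with a trend on log2(CPM + 4), the compared groups alone, and leaving out each library in turn. The 10 genes and the pathway and marker lists were chosen with earlier results of these data known, and a further marker is not reported here. From the other pathway lists, each tested gene that is named was the largest increase or largest decrease past the threshold in a comparison. Not all such genes are named, and *Thbs1*, *Ccn2* and *Vgll4* are also given with drugs where they were neither. As genes like each of the 10, the 2 with the highest correlation over group means were named, leaving out predicted genes known by number.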

Additional observations from a re-analysis of the deposited data

How the results depend on the processing

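Of 100 results (10 genes in 10 comparisons), limma-trend kept the direction and the side of the threshold in 100, DESeq2 in 98, fitting the compared groups alone in 95, no filter in 91 and library totals in 72. With library totals 13 calls were lost, 5 were gained and 12 estimates changed sign, 2 of the gained calls among them, and the cause was not tested beyond the shift in the median of all genes given above. Leaving out 1 library kept 645 of 690. The 10 genes had at least 1227 counts in every library, and the effect of depth on their calls was not tested.

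The replicate numbers are shared by the groups but did not pair the libraries, since over 84 same-numbered pairs the correlation of deviations from group means was -0.253 to 0.197 (median -0.0127), 9 were over 0.1, and 4 of 24 libraries correlated best with their own number. With the replicate number as a block, 99 of the 100 results kept their call, and that of *Wwtr1* with defactinib was lost (-0.0935, adjusted *P* = 0.0597). Its adjusted *P* was 0.11 with library totals, 0.0571 with DESeq2, 0.0972 with no filter and 0.0607 with the compared groups alone.

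Estimates that changed sign with library totals were *Yap1* with VS-4718 (0.0311) and GSK2256098 (0.00429), *Nf2* with IN10018 (0.00523), PROTAC FAK degrader 1 (0.0583) and that PROTAC against the kinase inhibitors (0.0167), *Tead1* (0.0536), *Ajuba* (0.0925) and *Myof* (0.0882) with GSK215, *Ajuba* (0.0193) and *Myof* (0.0869) with BSJ-04-0146, and *Lats2* (0.0123) and *Myof* (0.00125) between GSK215 and BSJ-04-0146. With no filter they were *Nf2* with defactinib (-0.00116) and IN10018 (0.00026), *Wwtr1* with GSK215 (-0.00348) and *Lats2* between GSK215 and BSJ-04-0146 (0.00952). The last was 0.00161 with DESeq2 and 0.00565 with the compared groups alone. None of these had passed the threshold, and the 2 *Myof* values did so with library totals. The number of the 10 genes called was 3 for BSJ-04-0146 with library totals (8 with TMM) and 1 for IN10018 with no filter (2 with it).

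Differences whose sign changed when 1 library was left out were all short of the threshold. Their ranges were -0.0106 to 0.0143 (*Nf2*, defactinib), -0.0465 to 0.00496 (*Yap1*, VS-4718), -0.00462 to 0.00928 (*Myof*, VS-4718), -0.0596 to 0.0302 (*Yap1*, GSK2256098), -0.00124 to 0.0507 (*Nf2*, GSK2256098), -0.0185 to 0.0114 (*Nf2*, IN10018), -0.0378 to 0.0121 (*Ankrd1*, IN10018), -0.0117 to 0.0389 (*Wwtr1*, GSK215), -0.0701 to 0.0138 (*Ajuba*, GSK215), and, between GSK215 and BSJ-04-0146, -0.029 to 0.0206 (*Lats2*) and -0.0365 to 0.0143 (*Myof*). Genes called numbered 1298 to 1622 for GSK2256098 and 1380 to 1824 for IN10018, and 1 to 2 of the 10 genes were called for IN10018.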
